A study of Mus musculus with 19 samples.

Results

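Control alveolar type II (AT2) cells were compared with control whole lung, gene by gene, to show which transcripts the sorted cells carry and which belong to the rest of the organ. The members are the 9 control libraries of a series of 19: 4 of sorted AT2 cells and 5 of lung tissue, chosen by their titles and measured by sequencing of polyadenylated RNA. The other 10 libraries are from mice that carried, in addition, 1 knockout and 1 loxP-flanked Etv5 allele, and they enter here only in an alternative fit. All control mice carried SpcCreERT2, a tamoxifen-inducible Cre recombinase driven by the surfactant protein C promoter, and RosatdTomato, a Cre-dependent red fluorescent reporter. They received tamoxifen (100 mg/kg) over 5 days and were left for 5 more days. AT2 cells were then taken by cell sorting as EpCAM+, tdTomato+, CD45- and CD31-, so the sorted cells are those in which the surfactant protein C promoter had driven recombination. The lung libraries come from mice with the same genotype and tamoxifen schedule. The labels give no age, and no label ties an AT2 library to the mouse of a lung library. The fifth control AT2 library named by the series design was not analysed here.

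AT2 cells are cuboidal epithelial cells of the alveolus that make, store and secrete pulmonary surfactant, a mixture of phospholipid and surfactant proteins that lowers surface tension. The lipid is stored in lamellar bodies, organelles related to lysosomes, and the cells also clear alveolar fluid, secrete antimicrobial proteins, present antigen on MHC class II and give rise to the flat type I (AT1) cells that carry gas exchange. Whole lung mixes them with AT1, airway, endothelial, mesenchymal and blood-derived cells.

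Total counts per library ran from 20279607 to 28671262 in AT2 cells and from 14971793 to 26989453 in lung. Levels below are CPM, counts scaled to a common library total, after TMM scaling, a scaling that evens out the bulk of genes between libraries. Replicates are separate libraries, but the labels tie them to no named animal, so p-values measure the spread between these libraries. In each group 1 library stood apart. On the first principal component within the AT2 group, which carried 49.1% of the variance, AT2 library 2 scored 45.4 and the others −28.0 to −2.82. On that of the lung group (41.1%), lung library 1 scored −41.9 and the others 4.74 to 16.8. The component that separated AT2 cells from lung across all 9 libraries carried 93.4% of the variance. Leaving out both libraries gave 6243 genes higher and 6722 lower in AT2 cells, against 6092 and 6662 with them.

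Most genes differed between the sorted cells and the organ. Of 17118 genes tested with edgeR's quasi-likelihood test at a Benjamini-Hochberg adjusted p under 0.05, 6092 were higher in AT2 cells (35.6%) and 6662 were lower (38.9%), so that 74.5% differed in either direction. The groups' libraries did not overlap for 66.5% of the genes. Against a null fold of 2, 1684 genes were higher (9.84%) and 4233 lower (24.7%). The 2 directions differed in reach. Among the higher genes 161 exceeded 8-fold, 26 exceeded 16-fold and 11 exceeded 32-fold, while among the lower genes 3006, 2426 and 1471 passed the same limits. The genes higher by more than 2-fold against that null held 41.0% to 46.3% of the counts of each AT2 library and 10.3% to 11.6% of each lung library. The genes lower by that rule held 2.36% to 2.90% of AT2 counts and 26.6% to 27.6% of lung counts. With scaling by library size alone, 3320 genes were higher and 9479 lower, so that the higher genes made up 25.9% of the calls in place of 47.8%, and the median log2 fold change of all genes moved from −0.01 to −0.42. Log2 fold changes below are AT2 cells over lung with TMM scaling, and background shares below are also those of TMM scaling. Counts of list members with library size alone are to be read beside 3320 higher and 9479 lower of 17118 genes. Among the named genes called with TMM scaling, 22 kept their sign but lost their call with library size alone. Another 7 changed sign, and some of these, such as Gprc5a, also lost their call. The log2 fold change under that scaling is given beside most of these genes. A further 7 named genes that had not passed also turned from positive to negative (Bpgm, Cgn, Cry1, Dynlrb2, Grhl1, Scnn1a and Sdhb).

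**Figure D1:**
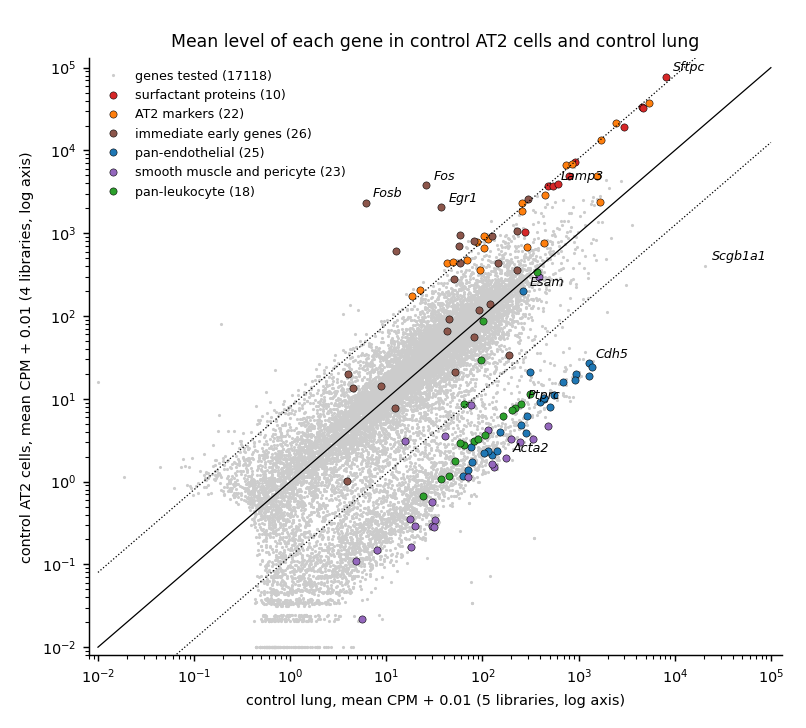
Mean CPM (plus 0.01) of each of 17118 tested genes in 4 control AT2 libraries (vertical, log axis) against 5 control lung libraries (horizontal, log axis), with list members coloured; the solid line marks equal levels and the dotted lines 8-fold differences. Most surfactant and AT2 marker genes lie near the upper dotted line, some above it and a few such as Cd36 and Trf far under it. Endothelial, smooth muscle and leukocyte genes lie below the lower dotted line apart from a few such as Esam. Fos, Fosb and Egr1 lie farther above the solid line than any AT2 marker gene, though not at the highest levels.

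The genes of the sort and of the Cre's promoter were examined first. Epcam (Entrez Gene 17075), the epithelial adhesion molecule used for positive selection, stood at 234, 218, 268 and 222 CPM in the 4 AT2 libraries and 56.5, 54.3, 58.7, 64.6 and 61.002 CPM in the 5 lung libraries (log2 fold change 2.00, SE 0.08, edgeR adjusted p = 7.41e-10). Ptprc (19264), which encodes CD45, stood at 9.87, 12.5, 7.74 and 4.42 CPM in AT2 cells and 286, 316, 208, 246 and 191 CPM in lung (log2 fold change −4.84, SE 0.28, edgeR adjusted p = 1.21e-08). Pecam1 (18613), which encodes CD31, stood at 23.9, 16.6, 21.5 and 18.1 CPM in AT2 cells and 875, 842, 928, 1005 and 1063 CPM in lung (log2 fold change −5.56, SE 0.15, edgeR adjusted p = 3.31e-11). The groups did not overlap for any of the 3, which was also so for 66.5% of all genes tested. The mean of AT2 cells was 3.47% of the lung mean for Ptprc and 2.12% for Pecam1. Sftpc (20389), the surfactant protein C gene whose promoter drives the Cre, stood at 83351, 53220.0, 95060.0 and 80547 CPM in AT2 cells and 6891, 7095, 8348, 9527 and 8571 CPM in lung (log2 fold change 3.27, SE 0.20, edgeR adjusted p = 1.97e-08). Its lowest AT2 value, in library 2, was still above every lung library. Etv5 (104156), the ETS family transcription factor whose alleles are altered in the series' other mice and not in these, stood at 714, 662, 645 and 632 CPM in AT2 cells and 92.3, 103, 108, 111 and 101 CPM in lung (log2 fold change 2.69, SE 0.08, edgeR adjusted p = 6.72e-11). It was 6.45-fold higher in AT2 cells, with no overlap.

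All 10 members of the surfactant protein list were higher in AT2 cells, each by more than 2-fold against the null of 2 (background 9.84%), with a median log2 fold change of 2.80 against −0.01 over all genes tested. Members of this and the other lists were chosen with earlier results of these data known. The cells were also sorted on recombination driven by the surfactant protein C promoter. Counts of list members, here and below, therefore describe the lists and are not an independent test. Sftpb, the hydrophobic surfactant protein B, stood at 35736, 24908, 37115 and 33739 CPM in AT2 cells and 3906, 4464, 5101, 5152 and 4745 CPM in lung (7.03-fold). Sftpa1, a collectin of surfactant, stood at 36124, 25476, 36120.0 and 35256 CPM in AT2 cells and 3795, 4036, 5031, 4920.5 and 4812 CPM in lung (7.36-fold). Sftpd, the other collectin, stood at 7323 ± 498 CPM in AT2 cells (SD, n = 4) and 924 ± 59.6 CPM in lung (SD, n = 5), a 7.93-fold difference. These and Sftpc differed by 7.03-fold to 9.65-fold, and no AT2 library of any of the 4 fell within the lung range (no overlap in 66.5% of all genes).

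The processing, transport and storage genes of surfactant were higher to a like degree. Abca3, the lipid transporter of the lamellar body membrane, stood at 5302, 4631, 5050.4 and 4827 CPM in AT2 cells and 681, 874, 877, 807 and 717 CPM in lung (6.26-fold). Lamp3, a lamellar body membrane protein, stood at 3845, 3334, 3923 and 3896 CPM and 462, 527, 542, 604 and 590.2 CPM (6.88-fold). Slc34a2, the sodium-phosphate cotransporter that takes phosphate back from surfactant, stood at 20092, 16987, 19761 and 19505 CPM and 2427, 2977, 3123, 3144 and 3053 CPM (6.48-fold). In all 3 genes the lowest AT2 library, which was library 2, lay above the highest lung library (no overlap in 66.5% of all genes). Lpcat1, the acyltransferase that remodels surfactant phosphatidylcholine, was 6.48-fold higher (3974 ± 325 and 614 ± 58.2 CPM). Of the proteases that mature the surfactant proteins, Napsa was 7.81-fold higher (3759.7 ± 612 and 481 ± 45.2 CPM) and Ctsh 3.74-fold (1028 ± 91.9 and 275 ± 54.1 CPM). Ctsh had the smallest difference of the list (log2 1.90).

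The bases just before the start sites of 4 of these genes are shown because the genes rise together in the sorted cells. Each line gives 150 bases, 5′ to 3′ on the gene's strand, from the RefSeq promoter table of GRCm38.p6. Capitals mark matches on either strand to CTCAAG, the core of the NKX2-1 site, to TNTTTAC, a FOXA core, and to TTNNGCAA, the C/EBP site. No marked match overlaps another.
Sftpb: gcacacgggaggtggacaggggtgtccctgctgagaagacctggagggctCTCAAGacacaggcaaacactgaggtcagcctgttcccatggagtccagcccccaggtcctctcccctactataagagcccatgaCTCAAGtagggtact
Sftpa1: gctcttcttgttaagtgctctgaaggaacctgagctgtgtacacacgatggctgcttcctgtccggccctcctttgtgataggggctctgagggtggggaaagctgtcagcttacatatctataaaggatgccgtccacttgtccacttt
Slc34a2: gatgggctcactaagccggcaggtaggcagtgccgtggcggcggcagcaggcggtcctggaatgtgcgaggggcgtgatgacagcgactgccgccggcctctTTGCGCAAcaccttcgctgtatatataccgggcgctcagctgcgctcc
Lamp3: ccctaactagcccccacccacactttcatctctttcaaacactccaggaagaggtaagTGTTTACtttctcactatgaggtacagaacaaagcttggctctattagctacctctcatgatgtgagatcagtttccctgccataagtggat
They lie at chr6:72304460-72304609 (plus strand), chr14:41131638-41131787 (plus strand), chr5:53049203-53049352 (plus strand) and chr16:19706366-19706515 (minus strand) respectively. The Sftpb stretch holds 2 matches to CTCAAG, that of Slc34a2 holds 1 to TTNNGCAA, that of Lamp3 holds 1 to TNTTTAC and that of Sftpa1 holds none of the 3, as does that of Abca3, which is not shown. These matches describe letters only. CTCAAG was present in 1 of 6 promoters of the surfactant protein list and 0 of 18 of the AT2 marker list, TNTTTAC in 1 and 1, and TTNNGCAA in 1 and 2. CTCAAG was present in 7.41% of 1242 promoters of genes higher by more than 2-fold and 7.52% of 2992 promoters of genes lower by more than 2-fold. It was present in 6.93% of 12562 promoters of genes tested and 7.77% of all 27025 promoters in the table. TNTTTAC was present in 3.62%, 5.21%, 3.84% and 5.97% of the same sets in that order, and TTNNGCAA in 5.64%, 5.31%, 4.4% and 5.48%.

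All 22 AT2 markers were higher in AT2 cells (background 35.6%), 20 of them by more than 2-fold against the null (background 9.84%), with a median log2 fold change of 2.92. As for the surfactant list, these counts describe members chosen with earlier results of these data known. Lyz2, a lysozyme, stood at 39717, 26328, 47308 and 35500.0 CPM in AT2 cells and 5089, 5175, 5271, 6074 and 5214 CPM in lung (6.94-fold). Scd1, the stearoyl-CoA desaturase that makes monounsaturated fatty acids, stood at 24214, 14204, 24969 and 22936 CPM and 1526, 2638, 2700.0, 2852 and 2604 CPM (8.76-fold). Cxcl15, the lung chemokine lungkine, stood at 13736, 11789, 15999 and 12359 CPM and 1691, 1679, 1619, 1947 and 1672 CPM (7.82-fold). None of the 3 overlapped between the groups (no overlap in 66.5% of all genes). Hc, complement component C5, was 8.03-fold higher (6918 ± 654 and 862 ± 102 CPM), Egfl6 7.36-fold (849 ± 50.5 and 115 ± 7.58 CPM) and the calcium-binding protein gene S100g 10.3-fold (439 ± 98.1 and 42.5 ± 5.81 CPM). S100g had the largest log2 fold change of the surfactant and AT2 marker genes (3.37). Some markers differed less: the fatty acid translocase gene Cd36 (log2 0.53, and 0.12 with library size alone, which did not pass), the transferrin gene Trf (0.78), the zinc transporter gene Slc39a8 (1.24) and Cd74 (1.67), the invariant chain of MHC class II. Across both lists, 26 of 32 genes were between 6-fold and 11-fold higher, limits that were drawn after the values were seen. With library size alone, 21 of the 22 markers remained higher.

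To rank different genes by level, values per length were used, as the authors' deposited RPKM (reads scaled by gene length and library size). In AT2 cells the 10 highest genes were Sftpc (91674 ± 20519 RPKM, SD, n = 4), Lyz2 (33247 ± 7692), Sftpb (19844 ± 3289), Sftpa1 (11318 ± 1764), Cxcl15 (5982 ± 805), Sftpd (5218 ± 338), Scd1 (4215 ± 970.3), Slc34a2 (4169.7 ± 313), Cbr2 (4011 ± 563) and the mitochondrial gene CYTB (3551 ± 1150.1). Cxcl15 and Sftpd, and the neighbours from Scd1 to CYTB, lay within 1 SD of each other. In lung the order began with Scgb1a1, the club cell secretoglobin (42571 ± 9886 RPKM, SD, n = 5), which was followed by Sftpc (9798 ± 1381), Lyz2 (4942 ± 389.6), Sftpb (2909 ± 333), CYTB (2354 ± 182), Cbr2 (1835 ± 302), Sftpa1 (1586 ± 206), ND1 (1585 ± 124), the thymosin gene Tmsb4x (1399.6 ± 221) and COX1 (1303 ± 79.2). CYTB and ND1 were higher in AT2 cells by log2 0.64 and 0.74, and did not pass with library size alone (0.22 and 0.32). Neighbours in this order from Cbr2 to COX1 lay within 1 SD of each other. So 6 of the 10 highest genes were shared, and 4 genes of the surfactant and AT2 marker lists were among the 7 highest of the whole organ.

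Of 30 lung epithelial transcription factors, 23 were higher in AT2 cells and 4 were lower (background 35.6% and 38.9%), with a median log2 fold change of 1.82. Nkx2-1, the factor that specifies lung epithelium and activates surfactant genes, stood at 777, 834, 679 and 747 CPM in AT2 cells and 176, 194, 176, 186 and 186 CPM in lung (log2 fold change 2.05, SE 0.08, edgeR adjusted p = 4.81e-10). Cebpa, the C/EBP factor of differentiated AT2 cells, stood at 978, 726, 854 and 927 CPM and 164, 175, 199, 198 and 187 CPM (log2 fold change 2.24, SE 0.10, edgeR adjusted p = 1.90e-09). The forkhead factors Foxa1 (3.65-fold) and Foxa2 (2.57-fold), the zinc finger factor Gata6 (2.35-fold) and Srebf1 (3.15-fold), which activates lipid synthesis, were also higher. Nkx2-1 and Cebpa did not overlap between groups (no overlap in 66.5% of all genes), and their folds were 4.14 and 4.72, beside 7.03 to 9.65 for the secreted surfactant proteins.

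The largest rises among the factors were elsewhere. Ovol1, an epithelial zinc finger factor, was 8.57-fold higher (24.8 ± 8.46 and 2.89 ± 0.576 CPM), Irx1 8.096-fold (616 ± 112 and 76.1 ± 15.8), Irx2 7.75-fold (363 ± 40.1 and 46.8 ± 1.82) and Irx3 5.76-fold (346 ± 39.6 and 60.04 ± 3.92), the last 3 being Iroquois homeobox genes. The epithelial ETS factors Elf3 (6.63-fold), Ehf (5.01-fold) and Elf5 (4.67-fold) were higher, as was Etv5. Grhl2 (3.83-fold), Tfcp2l1 (4.25-fold) and Klf5 (4.101-fold) were higher with log2 fold changes of about that of Nkx2-1 (1.94, 2.09, 2.04 and 2.05). Smaller differences passed for Id2 (log2 1.77), Foxp2 (1.67), Nr1d1 (1.15), Cebpd (1.05) and the nuclear receptor gene Rora (0.42, and 0.02 with library size alone, which did not pass). Grhl1, Foxp1 and Zbtb16 did not pass (log2 0.15, −0.26 and −0.39, the last being 1.15 without lung library 5), although Foxp1 passed as lower under several other settings, among them library size alone (−0.66), DESeq2 (−0.29) and without AT2 library 4 (−0.34) or lung library 1 (−0.31).

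The 4 lower factors mark other lung cells. Hopx, a homeobox gene of AT1 cells, stood at 41.1, 40.3, 54.1 and 48.4 CPM in AT2 cells and 449.6, 447, 426, 510.4 and 472 CPM in lung (log2 fold change −3.33, SE 0.11, edgeR adjusted p = 1.59e-10). Sox2, the factor of conducting airway epithelium, stood at 0.485, 0.339, 0.301 and 0.295 CPM and 7.09, 13.4, 10.1, 12.95 and 10.9 CPM (log2 fold change −4.92, SE 0.26, edgeR adjusted p = 7.22e-09). Pparg, which alveolar macrophages use, was at 4.18 ± 0.4496 and 14.4 ± 1.47 CPM (log2 −1.79), and Sox9, a factor of embryonic lung tips and cartilage, at 0.0632 ± 0.0234 and 0.486 ± 0.113 CPM (−2.85). Hopx and Sox2 did not overlap between the groups (no overlap in 66.5% of all genes).

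Of 25 AT1 markers, 18 were lower in AT2 cells (background 38.9%) and 5 were higher (median log2 −2.32). Pdpn, the podoplanin of AT1 and lymphatic cells, stood at 9.65, 14.96, 9.85 and 5.42 CPM in AT2 cells and 117, 92.8, 86.6, 103 and 87.99 CPM in lung (10.2% of lung). Clic5, a chloride channel family gene, stood at 152, 169, 153 and 165 CPM and 1007, 1134, 1079.7, 1084 and 1188 CPM (14.5%). Hopx was at 9.97% of lung and Cav1, the caveolin of AT1 and endothelial cells, at 3.16%. No AT2 library reached the lung range for these (no overlap in 66.5% of all genes). The 5 that went the other way were Aqp5, a water channel (605 ± 60.1 and 232 ± 17.6 CPM, log2 1.38), the claudin gene Cldn18 (1415 ± 86.7 and 703 ± 40.2 CPM, 1.01), Clic3 (0.55), Gprc5a (0.37) and Ager. Clic3 (0.14) and Gprc5a (−0.03) did not pass with library size alone. Ager, the receptor for advanced glycation end products and a usual AT1 marker, stood at 2323, 1836, 2521 and 2228 CPM in AT2 cells and 1604, 1555, 1479, 1716 and 1602 CPM in lung (log2 fold change 0.48, SE 0.10, edgeR adjusted p = 0.00108). With library size alone its log2 fold change was 0.07 and did not pass, and 2 AT1 markers were higher. Emp2 (log2 −0.84), Krt7 (−0.77) and Vegfa (−1.16) were lower by less than the list's median, and Lmo7 and Cyp2b10 did not pass (log2 −0.40 and −0.18). Lmo7 passed as lower under several other settings, among them library size alone (−0.80), DESeq2 (−0.43) and without lung library 1 (−0.46) or AT2 library 4 (−0.60). The AT1 list therefore holds genes at 3.16% of the lung level beside genes above it.

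Genes that mark the transition from AT2 to AT1 cells were divided, with 7 of 16 higher and 7 lower, near the shares over all genes (35.6% and 38.9%). Krt18 (2.03 on the log2 scale), Krt8 (1.51), Nupr1 (1.38) and Areg (5.03) were higher. Krt19 (−1.21), Cldn4 (−1.21), Ndrg1 (−1.69) and Plaur (−3.81), the urokinase receptor gene, were lower. Hbegf (0.53) and Clu (0.47) were higher with TMM scaling and did not pass with library size alone (0.12 and 0.07). Of the keratins of simple epithelium, Krt8 and Krt18 were thus higher and Krt7 and Krt19 lower.

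Of 30 genes of general epithelial identity, 27 were higher and 2, Krt19 and Cldn4, were lower (background 35.6% and 38.9%, median 1.73). Cdh1, E-cadherin, stood at 1004, 984, 1059 and 1085 CPM in AT2 cells and 313, 422, 360.1, 389 and 372 CPM in lung (2.78-fold). Cldn3 was 5.05-fold higher, Spint2, a protease inhibitor, 3.69-fold and Epcam 3.99-fold. At the top of the list stood Ovol1 (8.57-fold) and the kidney-type cadherin gene Cdh16 (6.61-fold), and Cgn, cingulin, did not pass (log2 0.19).

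Of 16 airway secretory markers, 9 were lower and 6 higher (background 38.9% and 35.6%). Scgb1a1 stood at 514, 227, 560.1 and 316 CPM in AT2 cells and 12289, 22953, 20966, 23737 and 22279 CPM in lung (log2 fold change −5.66, SE 0.35, edgeR adjusted p = 2.23e-08), and AT2 cells held 1.98% of the lung mean. Cyp2f2, a club cell cytochrome P450, stood at 145, 80.95, 136 and 91.6 CPM and 1119, 2244, 2034, 2299.9 and 2132 CPM (5.77%). In both genes lung library 1 was the lowest lung library and still far above AT2 cells. The higher members were Cbr2, a carbonyl reductase (4356 ± 617 and 1933 ± 311 CPM, log2 1.17), Hp, haptoglobin (1398 ± 290.1 and 768 ± 149 CPM, 0.86), and 4 genes of low level, namely Bpifa1 (9.24 ± 6.45 and 0.608 ± 0.525 CPM), Bpifb1 (1.93 ± 0.801 and 0.188 ± 0.0971), Scgb3a1 (2.79 ± 1.36 and 0.906 ± 0.496) and Spdef (4.46 ± 0.679 and 1.13 ± 0.0543).

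Ciliated cell genes were lower for 15 of 17 markers, at a median of 4.72% of the lung level, and none was higher. Over all genes 38.9% were lower and 35.6% higher, here and for the other lists of this paragraph. Foxj1, the master factor of motile cilia, stood at 3.07, 2.13, 3.36 and 2.59 CPM in AT2 cells and 39.2, 65.1, 60.6, 66.4 and 63.9 CPM in lung (log2 fold change −4.40, SE 0.19, edgeR adjusted p = 1.40e-09). Cyp2s1 was at 3.77% of lung, while Sec14l3 (482 ± 54.3 and 1527 ± 155 CPM, 31.5%) and Tppp3 (95.6 ± 6.79 and 248 ± 35.7 CPM, 38.5%) kept a larger share. Dynlrb2 (16.5 ± 2.46 and 13.9 ± 2.36 CPM) and Mcidas (0.742 ± 0.286 and 0.775 ± 0.218 CPM) did not pass. Basal cells gave 5 tested markers, of which Krt15 (3.25) and Icam1 (0.68) were higher and Ngfr (−4.40), Aqp3 (−1.44) and Trp63 (−2.41) lower. Krt5, a defining keratin, was below the count filter, with 3 counts in AT2 cells and 0 in lung. Neuroendocrine markers were lower for 5 of 6, with Uchl1 at 2.64% of lung. Scg5 was higher (1.08), and with library size alone it did not pass (0.67).

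**Figure D2:**
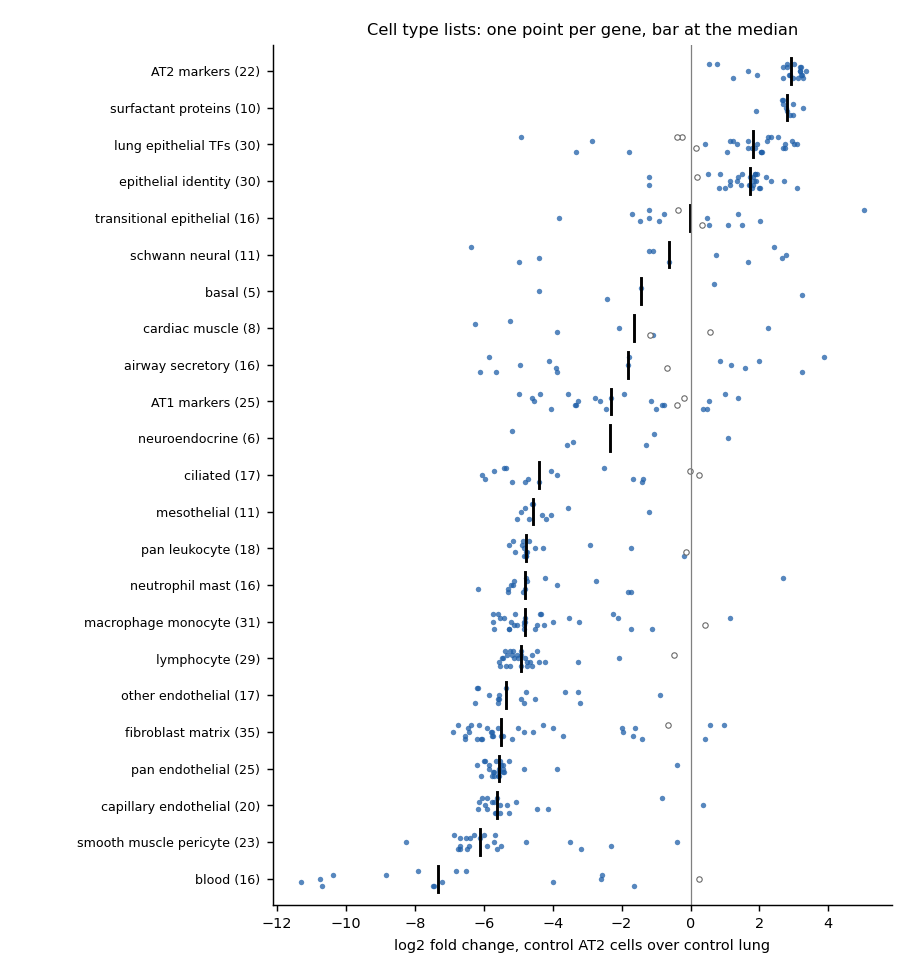
Log2 fold change of control AT2 cells over control lung for each tested gene of 23 cell type lists (horizontal); each row is a list with its number of tested genes, filled points passed the edgeR test, open points did not, and bars mark medians. Surfactant and AT2 lists sit near 3, epithelial transcription factors and epithelial identity near 2, and endothelial, mesenchymal and leukocyte lists between about −6 and −4.5 with single members near or above 0.

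All 25 pan-endothelial genes were lower in AT2 cells (background 38.9%), at a median of 2.12% of the lung level (median log2 −5.56). In bulk RNA, fewer cells of a type and less RNA per cell cannot be told apart, here and in the lists that follow. Cdh5, VE-cadherin of endothelial junctions, stood at 32.7, 22.03, 28.1 and 24.9 CPM in AT2 cells and 1178, 1245, 1258, 1318 and 1339.5 CPM in lung (2.12%). Calcrl, the adrenomedullin receptor gene, stood at 27.8, 18.8, 25.3 and 24.6 CPM and 1149.7, 1241, 1495, 1407 and 1645 CPM (1.74%). Ptprb, the vascular phosphatase, was at 1.48% and Lyve1 at 1.36%. The list's summed level was 381 to 470.1 CPM in AT2 libraries and 9069.5 to 12678 CPM in lung. All members but Egfl7 (6.76%) and Esam lay between 1.36% and 3.47%. Esam, an adhesion molecule of endothelial tight junctions, stood at 198, 195, 218 and 183 CPM in AT2 cells and 254, 230.2, 276, 288 and 264 CPM in lung (log2 fold change −0.40, SE 0.08, edgeR adjusted p = 8.67e-04), so that AT2 cells held 75.7% of the lung level.

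The subtypes of vessels followed the same range. Of 20 capillary genes 19 were lower (background 38.9%, median 2.02%), among them Plvap (1.61%), Cd93 (1.94%) and Car4 (2.59%) of capillary endothelium. Emp2, which AT1 cells also express, was at 55.9%. Nrp1, a coreceptor for VEGF and semaphorins, was higher, at 791 ± 21.9 CPM in AT2 cells and 611 ± 50.3 CPM in lung (log2 0.37, and −0.03 with library size alone, which did not pass). All 17 tested genes of arteries, veins and lymphatics were lower (median 2.43%), with Nr2f2, a venous factor (54.4%), and Prox1, the lymphatic factor (10.5%), keeping the largest shares.

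Fibroblast and matrix genes were lower for 31 of 35 (median 2.196% of lung) and higher for 3 (background 38.9% and 35.6%). Col1a1, a fibrillar collagen chain, stood at 13.8, 15.6, 9.89 and 7.54 CPM in AT2 cells and 747, 387, 383, 306 and 329 CPM in lung (2.72%). Eln, elastin, was at 1.48% and Pdgfra, the receptor of alveolar fibroblasts, at 0.926%. Lung library 1 was the highest lung library for Col1a1 and Eln, and the AT2 libraries stayed below all lung libraries. Meg3, a noncoding RNA, did not pass (log2 −0.66), but passed as lower under several other settings, among them library size alone (−1.05), DESeq2 (−0.68) and without AT2 library 2 (−0.90) or lung library 4 (−0.81) or 5 (−0.77). Several genes of the list kept more: Sparc stood at 25.3%, Macf1 at 25.8% and the actin-severing protein gene Gsn at 7.63%. The 3 higher genes were Ces1d, a lipase and carboxylesterase (1078 ± 241 and 546 ± 81.3 CPM, log2 0.98), Serpinf1 (0.41, and 0.01 with library size alone, which did not pass) and Col6a1 (491 ± 19.3 and 334 ± 83.7 CPM, 0.56, and 0.15 with library size alone, which did not pass). Col6a1 parted from its partners in collagen VI, Col6a2 (−1.40) and Col6a3 (−5.75).

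Smooth muscle and pericyte genes were lower in all 23 cases (background 38.9%), at a median of 1.44% of lung, a median log2 fold change of −6.12. Acta2, smooth muscle actin, stood at 2.75, 1.65, 2.28 and 1.06 CPM in AT2 cells and 191, 149, 185, 182 and 166 CPM in lung (1.11%). Postn was at 0.974%, Gucy1a1 at 0.9795% and Pdgfrb at 1.19%. Mylk, myosin light chain kinase, was the exception at 294 ± 22.6 CPM in AT2 cells and 388 ± 37.3 CPM in lung (log2 −0.40). All 11 mesothelial genes were lower (median 4.18%), with Msln at 5.44%, Igfbp5 at 3.06% and Rarres2 at 8.44%.

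Leukocyte genes were lower for 17 of 18 (background 38.9%), at a median of 3.64% of lung, and none was higher (background 35.6%). Laptm5, a lysosomal protein of blood cells, stood at 15.04, 13.9, 9.64 and 7.66 CPM in AT2 cells and 382, 328, 277, 320.4 and 266 CPM in lung (3.68%). Coro1a was at 3.52% and Ptprc at 3.47%. Lcp1, the leukocyte plastin, did not pass: it stood at 365, 327, 379 and 273 CPM in AT2 cells and 425, 401, 313, 392 and 311 CPM in lung (log2 fold change −0.13, SE 0.13, edgeR adjusted p = 0.359; 95% interval of the log2 fold change −0.41 to 0.14). Cytip, a cytohesin-binding gene of lymphocytes, was lower by a small step (log2 −0.20) that did not pass in the fit of all 19 libraries (edgeR adjusted p = 0.0566) or without AT2 library 2 (edgeR adjusted p = 0.0774) or 3 (0.055). The list's sum was 444 to 568 CPM in AT2 cells and 1894 to 2802 CPM in lung, and Lcp1 made up most of the AT2 sum.

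Among 31 macrophage and monocyte genes 29 were lower and Cd14 was higher (background 38.9% and 35.6%). Chil3, a chitinase-like protein of alveolar macrophages, stood at 19.4, 22.1, 13.8 and 13.7 CPM in AT2 cells and 421, 429.6, 675, 472 and 448 CPM in lung (3.53%). Csf1r was at 6.28% and Lpl, lipoprotein lipase, at 46.000%. Cd14, the endotoxin coreceptor, stood at 59.4, 62.8, 80.2 and 52.6 CPM in AT2 cells and 36.5, 28.6, 25.1, 30.4 and 24.6 CPM in lung (log2 fold change 1.13, SE 0.14, edgeR adjusted p = 1.23e-05). Of 29 lymphocyte genes 28 were lower (median 3.21%), with Cd22 at 2.19% and Tcf7 at 10.5%, while Cd79b did not pass (32.3 ± 8.14 and 45.6 ± 12.97 CPM). Cd79b passed as lower under other settings, among them library size alone (edgeR adjusted p = 0.00239) and leaving out AT2 library 3 (0.0315) or lung library 5 (0.0115), and Lcp1 passed as lower with library size alone (0.00307).

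Neutrophil and mast cell genes were lower for 15 of 16 (background 38.9%), with S100a9 at 3.52%, S100a8 at 3.35% and Csf3r at 2.53% of lung. The exception was Hdc, histidine decarboxylase, the enzyme that makes histamine. Hdc stood at 656, 535, 579.9 and 537 CPM in AT2 cells and 79.5, 90.3, 72.01, 116 and 86.8 CPM in lung (log2 fold change 2.70, SE 0.13, edgeR adjusted p = 3.44e-09). Of the mast cell proteases and receptors, Cpa3 gave 3 counts in all AT2 libraries and 362 in lung (ratio of lung to AT2 cells 81.3, 95% counting interval 27.6 to 396). Tpsab1, Mcpt8 and Fcer1a gave none in AT2 cells, but they were not among the tested genes and no difference is read from this. Hdc was thus 6.48-fold higher in libraries where the other tested genes of its list were lower, at 1.08% to 29.9% of lung.

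Red blood cell and platelet genes had the lowest median of all lists (−7.34 on the log2 scale), and 15 of 16 were lower (background 38.9%). Hbb-bs, a beta globin, stood at 0.162, 0.2905, 0.172 and 0.177 CPM in AT2 cells and 252, 47.97, 121, 695 and 599.9 CPM in lung. Globin thus varied widely among the lung libraries, from 47.97 in library 2 to 695 CPM in library 4, while the AT2 libraries held 16 counts of Hbb-bs in all. The related genes Hbb-b1 and Hbb-b2 carry counts identical to Hbb-bs and Hbb-bt and were counted once. Bpgm did not pass (log2 0.25), though it passed without lung library 4 (edgeR adjusted p = 0.0494).

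Of 8 tested cardiac genes 5 were lower (background 38.9%), with Actc1 at 1.29% of lung. Myh7, a slow myosin heavy chain, was higher and stood at 190.1, 205, 181 and 171 CPM in AT2 cells and 33.5, 43.4, 49.9, 39.8 and 29.98 CPM in lung (log2 fold change 2.25, SE 0.13, edgeR adjusted p = 1.76e-08). Other sarcomere genes were near 0 in AT2 cells, with Tnnt2 at 0.125 ± 0.177 CPM and Actc1 at 0.502 ± 0.149 CPM. Ryr2 did not pass (8.73 ± 0.495 and 5.97 ± 3.32 CPM), except without lung library 2 (edgeR adjusted p = 0.0234). Of 11 Schwann cell and neural genes 6 were lower and 5 higher, beside 38.9% lower and 35.6% higher over all genes. Among the higher ones were the prion protein gene Prnp (948 ± 83.02 and 176 ± 11.1 CPM), Mal, a raft protein of myelin and of epithelia (251 ± 24.8 and 37.1 ± 3.53 CPM), Mbp (log2 0.73) and Erbb3 (1.66). Sox10, the defining factor of Schwann cells, gave 1 count in AT2 cells and 45 in lung.

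Enzymes of fatty acid and phospholipid synthesis were higher for 30 of 37 genes and lower for 4 (background 35.6% and 38.9%, median log2 1.73). Of the higher ones 22 passed against the null fold of 2 (background 9.84%). Fasn, fatty acid synthase, stood at 3849, 3834, 3801 and 4095 CPM in AT2 cells and 405, 674, 661, 539 and 535 CPM in lung (log2 fold change 2.79, SE 0.14, edgeR adjusted p = 5.23e-09). Scd1 and Lpcat1, described above, were 8.76-fold and 6.48-fold higher. Of the enzymes upstream and downstream of them, Acly, which makes cytosolic acetyl-CoA, was 3.798-fold higher, the carboxylase Acaca 4.18-fold, the malic enzyme Me1 5.11-fold and the elongase Elovl1 7.49-fold. The step-limiting enzyme of phosphatidylcholine synthesis, Pcyt1a, differed less (1.53-fold), and Chpt1 (1.199-fold) less still, with a log2 fold change of 0.26 that library size alone turned to −0.14, which passed as lower. The 4 lower genes were Elovl6 (0.242 ± 0.05699 and 7.89 ± 0.481 CPM, log2 −5.01), an elongase of palmitate, Dgat2 (−1.50), a triglyceride enzyme, Cds2 (−1.02) and Lpgat1 (−0.98). Cds1, which carries the same reaction as Cds2, was 3.798-fold higher, so the paralogues moved in opposite directions.

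Cholesterol synthesis was higher in 23 of 24 tested genes and lower in none (background 35.6% and 38.9%, median 2.09). Hmgcs1, the synthase at the entry of the pathway, stood at 451, 373, 376 and 437 CPM in AT2 cells and 106, 103, 119, 134 and 110.1 CPM in lung (3.59-fold), with no overlap (66.5% of all genes had none). Srebf2, the factor that controls the pathway, was 2.37-fold higher. The members that passed ran from Stard4 (log2 0.70) to Fdps (2.67). Ebp did not pass (log2 −0.05). Ebp passed as lower (−0.46) with library size alone, and the other 23 as higher.

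Genes of lysosomes and lamellar bodies were less uniform, with 22 of 37 higher and 12 lower (background 35.6% and 38.9%, median 0.45). With library size alone 15 were higher and 15 lower (median 0.04), beside 3320 and 9479 of all 17118 genes. Npc2, a cholesterol transfer protein, stood at 6512, 4752, 7556 and 6206 CPM in AT2 cells and 801, 869, 961, 987 and 895 CPM in lung (6.93-fold), beside Abca3 and Lamp3. Subunits of the proton pump were higher, among them Atp6v1c2 (8.74-fold) and Atp6v0a1 (3.63-fold). Among the lower members, Lipa, lysosomal acid lipase, was at 2.26% of lung, Ctss at 3.78% and Psap, the saposin precursor, at 13.2%. The membrane protein genes differed less, with Lamp1 at log2 0.45 and Lamp2 at 0.48, and neither passed with library size alone (0.04 and 0.07).

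Ion and water transport genes were higher for 12 of 23 and lower for 8 (background 35.6% and 38.9%). Beside Slc34a2, these included the sodium pump subunit gene Atp1b1 (1829.9 ± 233 and 353 ± 64.2 CPM, 5.19-fold). The chloride channel gene Cftr (4.86-fold), the anion transporter gene Slc26a9 (6.18-fold) and the potassium channel genes Kcnj15 (5.03-fold) and Kcne2 (7.23-fold) were higher. Of the epithelial sodium channel, Scnn1a did not pass (log2 0.13) and Scnn1b (−1.40) and Scnn1g (−2.64) were lower. Aqp4, a water channel, was at 2.25% of lung.

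Innate defence genes were higher for 18 of 29 and lower for 10 (background 35.6% and 38.9%, median 1.80). Beside the collectins, lysozymes and Cxcl15, Chil1 (9.18-fold), the lipocalin gene Lcn2 (9.11-fold) and the alarmin gene Il33 (8.98-fold) were higher. Il6, a cytokine gene, was also higher and stood at 3.83, 7.36, 4.26 and 10.2 CPM in AT2 cells and 0.3797, 0.0584, 0.167, 0.143 and 0.105 CPM in lung, Ptgs2, cyclooxygenase 2, was 11.2-fold higher (215 ± 94.5 and 19.1 ± 1.67 CPM) and the chemokine gene Cxcl1 9.82-fold (6.899 ± 2.41 and 0.703 ± 0.609 CPM). Csf2, which encodes GM-CSF, stood at 21.2, 19.9, 25.3 and 24.6 CPM in AT2 cells and 2.53, 1.93, 1.57, 1.71 and 1.57 CPM in lung (12.2-fold). Tslp, another epithelial cytokine gene, was at 1.28% of lung and the nitric oxide synthase gene Nos2 at 1.596%. Of 10 MHC class II genes 7 were higher and 2 lower (background 35.6% and 38.9%). The peptide-presenting chains H2-Aa (1108 ± 73.6 and 445 ± 64.8 CPM) and H2-Ab1 (662 ± 33.1 and 375 ± 56.6 CPM) and the invariant chain Cd74 (4944, 4966, 5222 and 4499.5 CPM in AT2 cells, 1814, 1492, 1268, 1715 and 1405 CPM in lung) were higher, while H2-Oa (2.56% of lung) and H2-DMb2 (15.96%), whose products act in B cells and dendritic cells, were lower.

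Receptors of the FGF, MET and EGF families were split, with 6 of 13 higher and 7 lower (background 35.6% and 38.9%). Fgfr2, the receptor for FGF7 and FGF10, stood at 1309, 1368, 1329 and 1114 CPM in AT2 cells and 208, 235, 239.7, 236 and 202 CPM in lung (log2 fold change 2.52, SE 0.09, edgeR adjusted p = 3.61e-10). Met, the HGF receptor, stood at 577, 434, 569.9 and 583 CPM and 78.3, 124, 116, 118 and 114 CPM (log2 fold change 2.30, SE 0.14, edgeR adjusted p = 2.01e-08), and Erbb3 at 174 ± 23.2 and 54.9 ± 12.1 CPM. Fgfr1 (log2 −2.06), Fgfr4 (−5.75) and Igf1r (−3.35) were lower. Of the ligands, Fgf10 was at 0.985% of lung in AT2 cells, Hgf at 1.25% and Fgf7 at 2.19%. Of 17 ligands 10 were lower and 5 higher (background 38.9% and 35.6%). The 5 were Areg, an EGF receptor ligand described below, Btc (log2 0.73), Tgfa (0.65), Hbegf and Fgf1. With library size alone 1 ligand was higher and 12 lower, beside 3320 and 9479 of all 17118 genes. The values of Btc, Tgfa, Hbegf and Fgf1 were then 0.33, 0.25, 0.12 and −0.20, against 0.73, 0.65, 0.53 and 0.21, with Fgf1 passing as lower. Fgf1 also lost its call as higher with RLE scaling, the authors' size factors or no count filter, and without lung library 1, 2, 3 or 4 or AT2 library 1 or 3 (edgeR adjusted p from 0.0513 to 0.0876).

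Ligands for other cells of the alveolus were higher for 10 of 39 genes and lower for 27 (background 35.6% and 38.9%). Gas6, a ligand of TAM receptors (869 ± 41.9 and 381 ± 32.8 CPM), and Bmp4 (139 ± 12.7 and 59.9 ± 3.59 CPM) were among the higher ones. Wnt7b stood at 24.6, 21.5, 22.8 and 24.9 CPM in AT2 cells and 4.68, 4.73, 4.501, 5.103 and 7.09 CPM in lung (4.49-fold), Bmp2 was 4.08-fold higher and Il34 3.39-fold. Cxcl12 (1.81% of lung) and Kitl (2.32%) were low, and Vegfa stood at 284 ± 45.4 CPM in AT2 cells and 635 ± 41.6 CPM in lung. Of the matching receptors 6 of 43 were higher and 33 lower (median −3.99). The higher ones included the Wnt receptors Fzd5 (131 ± 19.8 and 42.2 ± 2.47 CPM), Fzd8 (2.47-fold) and Fzd7 (1.98-fold). Acvrl1 (2.15% of lung), Bmpr2 (15.5%) and Tgfbr2 (46.5%) were lower.

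Basement membrane genes were lower for 23 of 30 and higher for 6 (background 38.9% and 35.6%). The main collagen IV chains Col4a1 (826 ± 80.6 and 1506 ± 355 CPM) and Col4a2 (627 ± 71.3 and 1082 ± 231 CPM) kept 54.9% and 57.96% of the lung level. Among laminins, the chains Lamb3 (log2 1.39) and Lama5 (0.61, and 0.21 with library size alone, which did not pass) were higher and Lama2 (−6.21), Lama4 (−5.83) and Lamb1 (−5.10) lower. Frem2 (1.44) and Egfl6 (2.88) were higher. Of 26 integrins 21 were lower and 3 higher. Itga7, a laminin-binding chain, stood at 141, 179, 159 and 141 CPM in AT2 cells and 25.4, 24.8, 20.8, 22.9 and 20.3 CPM in lung (6.79-fold), Itga9 at 604 ± 45.3 and 158 ± 8.18 CPM, and Itgad at 11.6 ± 1.995 and 3.001 ± 0.9898 CPM. Itgb1, the common partner chain, was lower (−0.63), as was Itga3 (−0.92).

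Tight junction genes were higher for 10 of 24 and lower for 10, also near those shares (35.6% and 38.9%). Cldn18, Cldn3 and Cldn7 were higher (log2 1.01, 2.34 and 1.87). Cldn5 (−5.40), Cldn10 (−5.80), Jam2 (−5.84) and Tjp1 (−1.07) were lower.

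**Figure D3:**
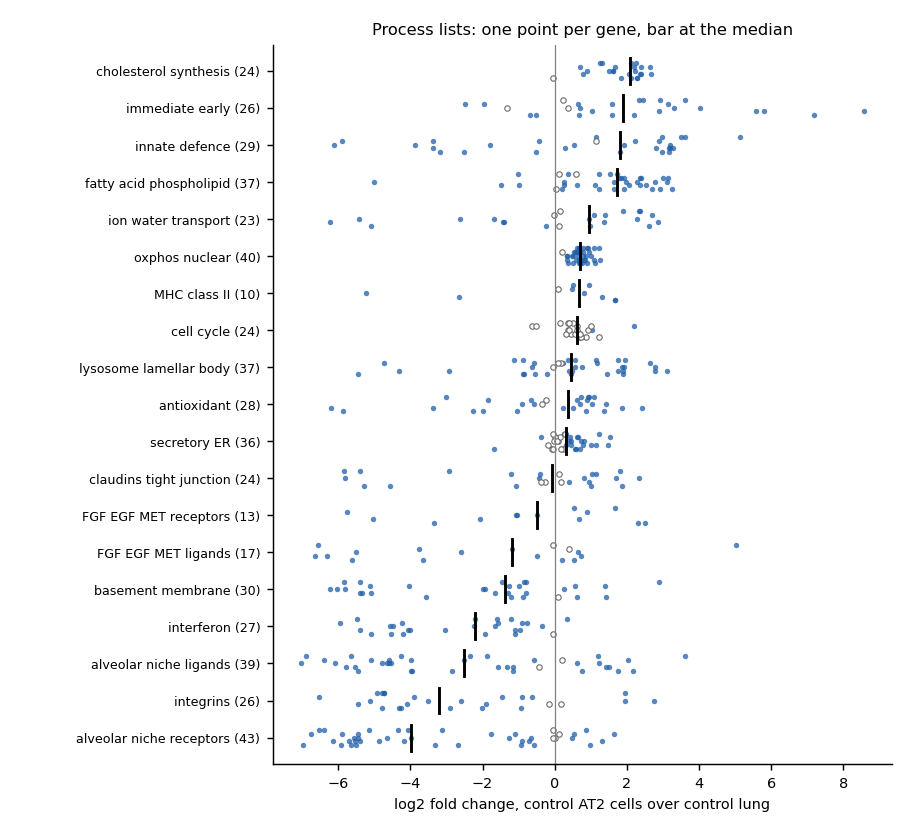
Log2 fold change of control AT2 cells over control lung for each tested gene of 19 process lists (horizontal); filled points passed the edgeR test, open points did not, and bars mark medians. Cholesterol synthesis lies above 0 except Ebp, oxidative phosphorylation lies in a narrow band above 0, immediate early genes reach past 8, and niche receptors, integrins and interferon genes lie mostly below 0.

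Nuclear genes of oxidative phosphorylation were higher for 39 of 40 (background 35.6%), but by small steps (median 0.69), and 2 exceeded a fold of 2 against the null (background 9.84%). Atp5a1 (797 ± 53.8 and 448 ± 23.7 CPM) and Atp5b (655 ± 47.4 and 474 ± 33.9 CPM), both of ATP synthase, and Sdha of complex II (263 ± 16.5 and 207 ± 13.6 CPM) are examples, and Sdhb did not pass (log2 0.21), but passed as higher in the fit of all 19 libraries (0.21) and without AT2 library 2 (0.29) or 4 (0.27). With library size alone 23 of the 40 were higher, beside 3320 of all 17118 genes. Under that scaling Atp5b did not pass (0.06) and Sdha had a log2 fold change of −0.06 against 0.35. Secretory pathway and endoplasmic reticulum genes were higher for 22 of 36 and lower for 2 with TMM scaling (background 35.6% and 38.9%). With library size alone 9 were higher and 11 lower (medians 0.30 with TMM scaling and −0.10), beside 3320 and 9479 of all 17118 genes. P4hb was higher under both (0.81 with TMM scaling), Hspa5 moved from 0.69 to 0.28 and Hsp90b1 from 0.30 to −0.10. The call of Hsp90b1 also failed with RLE scaling (edgeR adjusted p = 0.0518), with the authors' size factors (0.0679) and without AT2 library 1, 3 or 4 or lung library 1, 2 or 3 (edgeR adjusted p 0.0524 to 0.0787). Chac1 (−1.67) and Asns (−0.38) were lower.

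Antioxidant genes were higher for 15 of 28 and lower for 11 (median 0.37), beside 35.6% higher and 38.9% lower over all genes. With library size alone 12 were higher and 13 lower (median −0.05), beside 3320 and 9479 of all 17118 genes. Cat, catalase (1385 ± 213 and 379.6 ± 44.2 CPM), and Gclc, the catalytic subunit of glutathione synthesis (921 ± 48.9 and 173 ± 22.5 CPM), were 3.65-fold and 5.32-fold higher. The secreted enzymes Gpx3 (1.35% of lung) and Sod3 (1.71%) were lower, and Prdx6 was lower by a smaller step (−0.58).

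Interferon response and antigen presentation genes were lower for 25 of 27 (background 38.9%, median −2.22), 18 of them by more than 2-fold against the null (background 24.7%). B2m, the light chain of MHC class I, stood at 344, 482, 379 and 316 CPM in AT2 cells and 1172, 1082, 1027, 1326 and 1077 CPM in lung (log2 fold change −1.58, SE 0.13, edgeR adjusted p = 3.97e-07). Of the heavy chains, H2-K1 was higher (919 ± 96.1 and 732 ± 64.1 CPM, log2 0.33, and −0.07 with library size alone, which did not pass) and H2-D1 did not pass (−0.05, but lower at −0.45 with library size alone). Ifitm3 was at 4.24% of lung and Ifit2 at 2.35%.

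The largest differences in favour of AT2 cells lay outside the AT2 lists. Above S100g, the top of those lists, stood 64 genes that passed, 22 of them at a mean of at least 20 CPM in AT2 cells, and 6 of the 22 are immediate early genes, which cells transcribe within minutes of a stimulus. Fosb, an AP-1 subunit, stood at 2064, 2272, 2149 and 2872 CPM in AT2 cells and 6.79, 3.798, 9.54, 6.39 and 3.78 CPM in lung (log2 fold change 8.56, SE 0.29, edgeR adjusted p = 1.72e-10). Fos, its paralogue, stood at 3906, 2984, 3683 and 4669.6 CPM and 28.8, 20.9, 26.8, 31.5 and 21.996 CPM (log2 fold change 7.19, SE 0.19, edgeR adjusted p = 3.33e-11). Egr1, a zinc finger factor, stood at 1946, 1568, 2002 and 2787 CPM and 58.8, 22.96, 54.1, 29.01 and 21.7 CPM (log2 fold change 5.79, SE 0.35, edgeR adjusted p = 2.02e-08). In all 3 the lowest AT2 library lay far above the highest lung library. Atf3, a stress-induced CREB family factor, stood at 497, 496, 614 and 805 CPM in AT2 cells and 20.6, 8.53, 14.4, 10.2 and 8.66 CPM in lung (48.3-fold). Nr4a1, an orphan nuclear receptor, stood at 826, 1162, 887 and 972 CPM and 109, 48.7, 69.1, 41.1 and 27.2 CPM (16.3-fold), and Junb at 661, 533, 619 and 1013 CPM and 81.01, 53.2, 48.6, 54.1 and 50.5 CPM (12.3-fold). For each of these 6 genes the groups were separated (no overlap in 66.5% of all genes), and AT2 library 4 was the highest of its group for all but Nr4a1.

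Of all 26 immediate early genes 19 were higher and 4 lower (background 35.6% and 38.9%, median 1.90). With library size alone 15 were higher and 5 lower, beside 3320 and 9479 of all 17118 genes. Jun was 8.799-fold higher (2604 ± 503 and 296 ± 30.4 CPM), Zfp36 9.84-fold, Ier2 7.597-fold, Dusp1 7.35-fold and Socs3 5.49-fold. Klf2 (−2.47), which endothelial cells express, and Egr3 (−1.97) were lower, as were Ier3 (−0.53) and Myc (−0.69), the latter not without AT2 library 3 (edgeR adjusted p = 0.0569). Of the heat shock members Hspa1a (20.2 ± 10.4 and 4.01 ± 2.69 CPM) and Hspa1b (13.3 ± 7.99 and 4.47 ± 4.797 CPM), a near-identical pair whose reads the authors' unique alignment can lose, were higher. The call of Hspa1b failed with library size alone and without AT2 library 2 or 4 or lung library 1, 2, 3 or 4 (edgeR adjusted p 0.0518 to 0.107). Hsph1 did not pass, and stood at 9.92, 12.3, 10.8 and 50.8 CPM in AT2 libraries and 27.2, 37.3, 35.5, 38.1 and 123 CPM in lung libraries; it passed as lower under several other settings, among them library size alone (edgeR adjusted p = 0.0164), all 19 libraries (0.0147) and without AT2 library 4 (0.00178) or lung library 1 (0.0352). The summed level of the list was 16614, 16099, 16751 and 22512 CPM in AT2 libraries 1 to 4 and 1750.5 to 2319.9 CPM in lung. Sorted cells and whole tissue are also 2 ways of preparing RNA, and a difference made by the preparation and one between the cells cannot be told apart in this design.

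Of the 15 largest differences among genes at 20 CPM or more, 6 were immediate early genes and the rest were of mixed kinds. Areg, amphiregulin, stood at 104, 208, 113 and 126 CPM in AT2 cells and 5.74, 2.86, 3.77, 4.03 and 4.62 CPM in lung (log2 fold change 5.03, SE 0.24, edgeR adjusted p = 2.68e-09). Mfsd2a, the transporter of lysophosphatidylcholine that carries docosahexaenoic acid, stood at 112, 103, 105 and 159 CPM and 3.38, 4.15, 6.77, 5.78 and 5.25 CPM (log2 fold change 4.54, SE 0.20, edgeR adjusted p = 1.26e-09). C2cd4b stood at 104, 116, 103 and 104 CPM and 3.797, 3.51, 3.37, 3.78 and 2.99 CPM (log2 fold change 4.93, SE 0.09, edgeR adjusted p = 7.65e-12). The groups lay far apart in all 3. M5C1000I18Rik (32.1-fold) overlaps C2cd4b in the annotation, and without knowing whether counting used strand, which is not given in the sources used here, their reads cannot be told apart. Csf2 was described above, and Cst8 (12.9-fold, 61.3 ± 34.5 and 4.73 ± 1.57 CPM), a cystatin, Rasd1 (13.1-fold), a small GTPase, and Fabp12 (11.9-fold), a fatty acid binding protein, complete the set.

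The gene with the largest fold among those at 20 CPM or more was Iqcn, which stood at 51.4, 109, 86.3 and 75.8 CPM in AT2 cells and 0.127, 0.117, 0.3001, 0.143 and 0.20999 CPM in lung (log2 fold change 8.72, SE 0.29, edgeR adjusted p = 1.78e-10). In the annotation it lies 705 bases from Jund, an AP-1 gene at 1052 ± 127.6 CPM in AT2 cells and 229 ± 5.9004 CPM in lung (log2 2.20). Fam71a, which was singled out after its values were seen, stood at 13.5, 13.9, 13.6 and 22.7 CPM in AT2 cells and gave no count in any lung library, so that it was at least 626-fold higher, taking 3 counts over the 5 lung libraries as the floor. Its nearest coding gene, 5479 bases away, is Atf3. Whether reads from the neighbours enter these counts was not tested.

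The promoter of Atf3 is shown as an example from this set because it holds a match to TGACGTNA, the site of CREB and ATF factors, in capitals, which begins 10 bases before the RefSeq start. The 150 bases shown lie at chr1:191183334-191183483 (minus strand).
Atf3: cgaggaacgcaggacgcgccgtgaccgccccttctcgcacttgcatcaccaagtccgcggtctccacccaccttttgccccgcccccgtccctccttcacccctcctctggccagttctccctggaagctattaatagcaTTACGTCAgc
The same letters, on either strand of the 150 bases before the start, were found in 2 of 22 immediate early promoters (9.09%). They were in 27 of 1242 promoters of genes higher by more than 2-fold (2.17%) and 46 of 2992 of genes lower by more than 2-fold (1.54%). The shares were 3.34% of 12562 promoters of genes tested and 2.23% of all promoters.

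**Figure D4:**
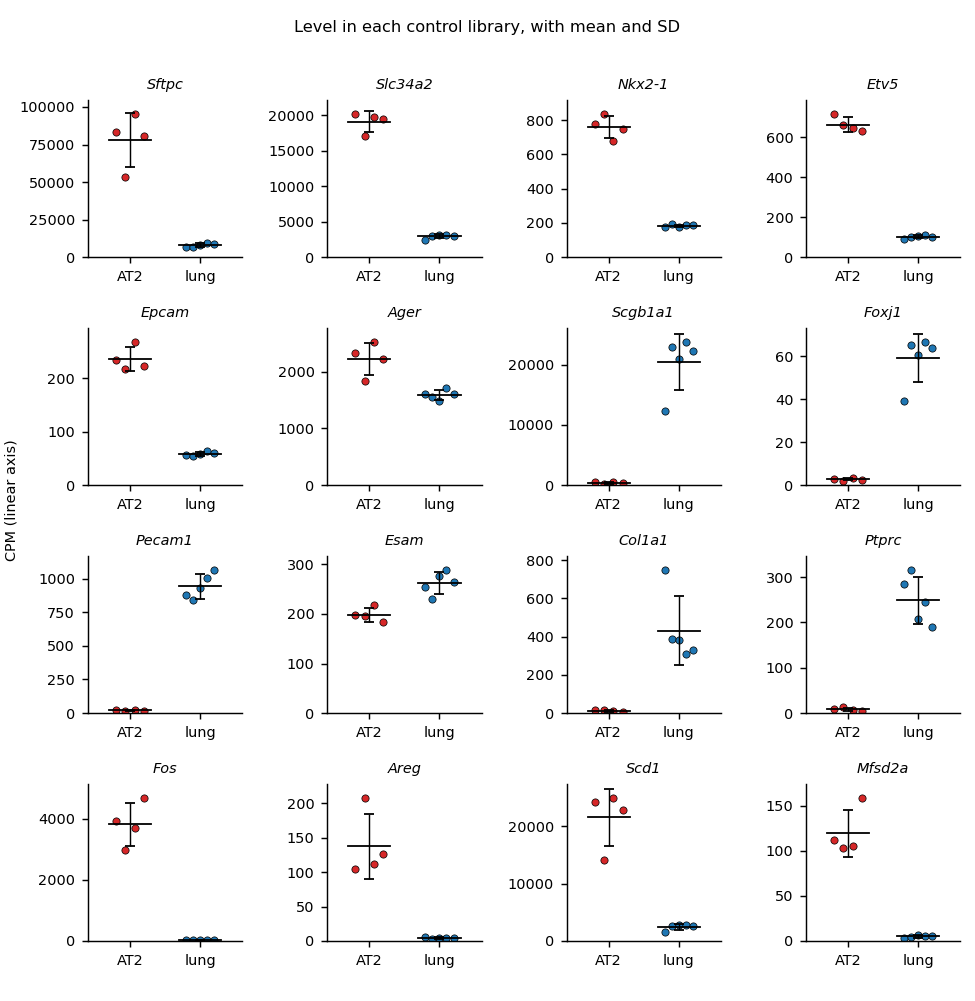
CPM in each control library (linear axes from 0) of 16 genes in 4 AT2 libraries (red) and 5 lung libraries (blue), with horizontal bars at the mean and error bars of 1 SD. Surfactant, transcription factor and epithelial genes are high in AT2 cells and present in lung; Scgb1a1, Foxj1, Pecam1, Col1a1 and Ptprc are near 0 in AT2 cells; Fos, Areg and Mfsd2a are near 0 in lung; Ager and Esam differ little.

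The lowest genes relative to lung belonged to blood, signalling and mesenchyme. Beside Hbb-bs, the alpha globin gene Hba-a1 gave 5 counts in AT2 cells and 14187 in lung, Hba-a2 4 and 9029, and Hbb-bt 2 and 9458 (ratio 3186, 95% counting interval 882 to 26312). Alas2, the heme synthesis enzyme of red cells, was 242-fold lower. Adra1a, an alpha-adrenergic receptor, stood at 0.162, 0.0968, 0 and 0.177 CPM in AT2 cells and 14.1, 29.7, 39.8, 16.8 and 30.5 CPM in lung (240.4-fold lower). Nox4, an NADPH oxidase, stood at 0.701, 0.436, 0.4302 and 0.589 CPM and 74.1, 72.6, 88.7, 50.9 and 77.5 CPM (135-fold lower), and Angpt1, the TEK ligand, at 0.593, 0.581, 0.516 and 0.943 CPM and 70.8, 74.97, 112, 73.2 and 92.8 CPM (129-fold lower). All lung libraries of these 3 exceeded every AT2 library by at least 10 CPM. Adcy8 (135-fold), an adenylyl cyclase, Sgip1 (137-fold), Kcna2 (126-fold), a potassium channel, Trpc6 (117-fold), a cation channel of smooth muscle, Prkg2 (113-fold), a cGMP-dependent kinase, Col8a1 (117-fold) and Serpina3n (117-fold) were lower with AT2 means under 1 CPM. These genes, from Adra1a on, stood at 0.882% of lung or less, and were picked by the rule for their low values.

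Proliferation genes were spread within both groups, and few differed between them. Of 24 cell cycle genes 3 were higher in AT2 cells and none was lower (background 35.6% and 38.9%). The 3 were Bub1 (35.9 ± 3.05 and 7.83 ± 2.79 CPM, log2 2.19), Tyms (1.04) and Pcna (0.83, and 0.44 with library size alone, which did not pass). The counts were 3 and 0 with DESeq2, 3 and 1 with limma-voom, and 2 and 2 with library size alone. Mki67 stood at 27.9, 116, 62.9 and 15.4 CPM in AT2 libraries 1 to 4 and 75.3, 35.1, 19.1, 21.5 and 21.7 CPM in lung libraries 1 to 5, and Top2a at 24.1, 96.6, 53.6 and 13.8 CPM and 85.2, 27.5, 17.3, 23.5 and 20.002 CPM. In each gene AT2 library 2 and lung library 1 were the highest of their group. The list's sum was 304, 795, 521 and 201 CPM in AT2 cells and 644, 261, 199.97, 254 and 214 CPM in lung. Without lung library 1, 18 of the 24 passed as higher, among them Mki67 (edgeR adjusted p = 0.0462). Without AT2 library 4, 6 were higher, without AT2 library 2, 3 were higher and 2 lower, and without both libraries that stood apart, 9 were higher and 1 lower.

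The genes that set AT2 library 2 and lung library 1 apart were partly shared. Of 6567 genes at a mean of at least 20 CPM in both groups, 16 were at least 2-fold higher in AT2 library 2 than the mean of its group's other libraries and 9 in lung library 1. The overlap was 4 genes (Mcm5, Mki67, Ncapd2 and Top2a), 25% of the AT2 set and 44.4% of the lung set. Of genes at least 2-fold lower, 4 and 5 in number, Pon1 was in both. Pon1, a lipoprotein-bound esterase, stood at 181, 33.2, 202 and 153 CPM in AT2 libraries 1 to 4 and 33.2, 59.5, 66.01, 82.9 and 66.2 CPM in lung libraries 1 to 5. Its difference between groups passed (log2 1.21), but not with library size alone (edgeR adjusted p = 0.0874), with limma-voom (limma adjusted p = 0.077) or without AT2 library 3 (edgeR 0.0597). Iqgap3, a scaffold gene of dividing cells, stood at 9.97, 43.04, 22.8 and 5.83 CPM and 28.5, 9.23, 3.401, 5.495 and 4.83 CPM, and passed as higher in AT2 cells once lung library 1 was left out (edgeR adjusted p = 0.00861).

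A few genes of the circadian clock, picked because they set AT2 library 2 apart, follow. Dbp, an output gene of the clock, stood at 17.7, 55.5, 10.7 and 6.599 CPM in AT2 libraries 1 to 4 and 30.2, 11.7, 5.97, 11.2 and 3.62 CPM in lung libraries 1 to 5. Per2 stood at 14.8, 59.7, 13.6 and 26.1 CPM and 16.5, 15.5, 15.6, 10.1 and 18.1 CPM, and Cry1, which peaks in another phase, at 18.2, 7.21, 23.2 and 40.3 CPM and 15.6, 14.96, 24.1, 15.1 and 28.1 CPM. Dbp and Per2 were highest and Cry1 lowest in AT2 library 2, and Dbp was highest of its group in lung library 1. The call of Per2 as higher in AT2 cells (log2 0.92) was lost under all other settings run except upper-quartile scaling, no count filter and leaving out AT2 library 1 or 3. Its log2 fold change was 0.56 with library size alone, and the call was lost without AT2 library 2 (0.27, edgeR adjusted p = 0.3) and without AT2 library 4 or lung library 1, 2, 3, 4 or 5 (up to 0.101), while Dbp passed only without lung library 1 (0.0415). Slc26a4, an anion exchanger, stood at 25.3, 87.1, 28.6 and 23.1 CPM and 7.85, 4.21, 3.23, 4.42 and 2.68 CPM. Hes2 (59.3, 17.1, 67.5 and 41.6 CPM and 2.57, 10.3, 5.77, 8.53 and 7.14 CPM) and Cst8 (66.4, 22.5, 105 and 50.8 CPM and 2.03, 5.14, 5.93, 5.67 and 4.88 CPM) were lowest in the same libraries, AT2 library 2 and lung library 1.

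Single matrix and protease genes were also highest in lung library 1, picked because they set it apart. Eln stood at 1724, 437, 633, 368 and 545 CPM in lung libraries 1 to 5, Tnc, a matrix protein of growing tissue, at 92.3, 28.5, 26.2, 20.1 and 18.1 CPM and Mmp12, macrophage elastase, at 98.2, 8.24, 6.201, 8.46 and 6.88 CPM. The same 3 genes were highest in AT2 library 2 among AT2 libraries. In AT2 libraries 1 to 4 Eln stood at 8.63, 19.9, 7.31 and 7.95 CPM, Tnc at 0.593, 2.57, 0.645 and 0.707 CPM and Mmp12 at 0.324, 2.47, 0.344 and 0.177 CPM. Cpxm1 (61.9, 23.02, 19.004, 17.02 and 23.3 CPM), Fscn1 (74.6, 22.1, 22.8, 29.3 and 28.9 CPM) and Adgre4 (60.4, 33.01, 14.8, 25.3 and 11.7 CPM) were also highest in lung library 1, while Npr3 (61.1, 107, 116, 184 and 528 CPM) and Ankrd63 (9.49, 19.7, 40.3, 36.3 and 25.7 CPM) were lowest there.

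**Figure D5:**
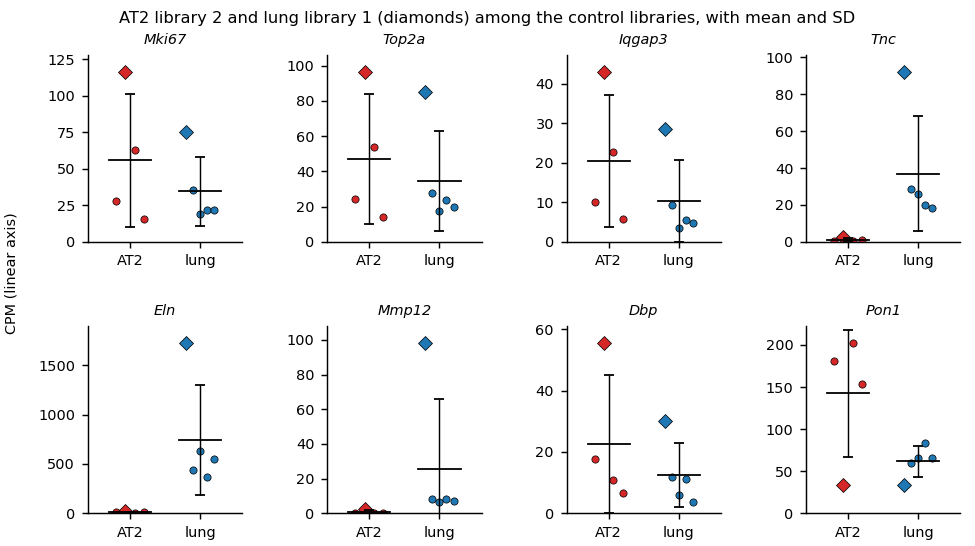
CPM in each control library (linear axes from 0) of 8 genes that set AT2 library 2 and lung library 1 apart (diamonds), in AT2 cells (red) and lung (blue), with means and 1 SD. The diamonds are the highest of their group for Mki67, Top2a, Iqgap3, Tnc, Eln, Mmp12 and Dbp and the lowest for Pon1.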

How the data were processed

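Polyadenylated RNA of 9 control libraries (4 of AT2 cells, 5 of lung) was analysed. The authors' deposited count tallies uniquely aligned reads per gene model, per the file headers, and the deposited RPKM is scaled per library by a size factor. The submitters' processing notes name GSNAP, without a version, and the build mm9. For the annotation, the counter and strandedness, nothing is given in the sources used here. Leaving out reads with several alignments lowers the counts of near-identical genes. The tables hold 36528 Entrez IDs, of which 31049 were named from the RefSeq table of GRCm38.p6 and 78 from GENCODE; named IDs held 98.8% of counts. Promoter sequences are from RefSeq on GRCm38.p6, and no coordinate was moved between builds. RPKM served to compare levels between genes; it followed the count column up to factors per gene and library (largest residual on the log scale 3.64e-14).

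Genes kept by edgeR's filter on low counts (17118) were tested on the deposited counts with edgeR 4.0.16 in R 4.3.3 (TMM scaling, quasi-likelihood test, Benjamini-Hochberg adjustment over all genes tested) in a fit of the 9 control libraries. A second test set a fold of 2 as the null. Alternatives were other scalings, no filter, DESeq2 1.42.0, limma-voom (limma 3.58.1), all 19 libraries and leaving out each library. Leaving out both libraries that stood apart was added after seeing the data. CPM are after TMM scaling, values with ± are SDs, and folds are ratios of mean CPM. Counting intervals cover counting error only.

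The gene lists and members were chosen with earlier results of these data known. By the rule, the text names 5 sort and target genes, the 15 largest differences each way (no overlap, at least 20 CPM), the 10 highest RPKM per group, the leading and the opposed members of each list, all surfactant genes and passing transcription factors, and the 10 genes that most set a library apart. Results of a few genes are not reported here. A further 103 were named for their known roles or after their values were seen. On simulated counts with 50 changed genes per fold size, the same fit recovered 52% at 1.5-fold and 76% at 2-fold. Recovery was 98% at 4-fold and 100% at 8-fold, with 5 false calls among the unchanged genes of the 17118 simulated. Changes in the simulation were few and of random direction, whereas 74.5% of genes differed in the data. The simulation therefore does not measure errors of scaling. Total counts, given in the report, limit precision for genes under a few CPM.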

Additional observations from a re-analysis of the deposited data

Results flagged for a closer look

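Each named gene was examined within the 4 AT2 libraries and within the 5 lung libraries for a single library whose gap to the nearest other exceeded the critical value of Dixon's test. Of 680 groups of values, 71 had such a library. Chance gives about 1 in 20 groups for independent values of genes not picked by them. Here some genes were named because they set a library apart, and genes of 1 library are not independent. The count is therefore descriptive and cannot be set against that rate. All values are CPM after TMM scaling, and the causes were not tested.

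Lung library 1 stood above the other libraries of its group for Col1a1 (747), Col4a1 (2131), Col4a2 (1485), Col6a2 (422), Cpxm1 (61.9), Cxcl1 (1.77), Eln (1724), Fscn1 (74.6), Iqgap3 (28.5) and Junb (81.01). Lung library 1 also stood above the other libraries of its group for Lipa (157), Mki67 (75.3), Mmp12 (98.2), Socs3 (70.1), Sparc (2754), Tnc (92.3), Top2a (85.2), Tyms (8.14) and Zfp36 (99.03). Lung library 1 stood below the other libraries of its group for Cst8 (2.03), Cyp2f2 (1119), Foxj1 (39.2), Grhl2 (18.4), Met (78.3), Scd1 (1526), Scgb1a1 (12289) and Slc34a2 (2427).

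AT2 library 2 stood above the other libraries of its group for C2cd4b (116), Col6a3 (5.18), Eln (19.9), Hbb-bs (0.2905), Lamb1 (6.58), Meg3 (6.44), Mmp12 (2.47), Slc26a4 (87.1) and Tnc (2.57). AT2 library 2 stood below the other libraries of its group for Cbr2 (3441), Cldn3 (432), Itgb1 (533), Lamp3 (3334), Met (434), Sdha (239) and Sftpa1 (25476).

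AT2 library 4 stood above the other libraries of its group for Fam71a (22.7), Fasn (4095), Hsph1 (50.8), Jun (3351), Mfsd2a (159), Npr3 (7.95), Sox10 (0.0589) and Zbtb16 (148). Lung library 5 stood above the other libraries of its group for Hspa1a (8.66), Hspa1b (12.97), Hsph1 (123), Npr3 (528), Tgfa (32.1), Wnt7b (7.09) and Zbtb16 (252).

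Lung library 4 stood above the other libraries of its group for Aqp5 (262), Cxcl15 (1947), Lyz2 (6074) and Slc39a8 (319). Lung library 4 stood below the other libraries of its group for Fgfr4 (25.5) and Lamb1 (128.5). Lung library 2 stood above the other libraries of its group for Csf3r (117). Lung library 2 stood below the other libraries of its group for Lamp2 (337). Lung library 3 stood above the other libraries of its group for Chil3 (675) and Rasd1 (3.53). AT2 library 1 stood above the other libraries of its group for Myl7 (0.809). AT2 library 3 stood above the other libraries of its group for Tnnt2 (0.387). AT2 library 3 stood below the other libraries of its group for Irx1 (449.9).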

How the results depend on the processing

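Of 17118 genes, 6092 were higher and 6662 lower in AT2 cells. Under RLE, upper-quartile and the authors' scaling, no count filter, DESeq2, limma-voom and all 19 libraries the counts were 5745 to 6439 higher and 6635 to 8130 lower. With library size alone they were 3320 and 9479, and against a null fold of 2 they were 1684 and 4233, which by construction counts fewer genes. Leaving out 1 library gave 5745 to 6215 higher and 6293 to 6770 lower. Leaving out AT2 library 2 and lung library 1 together, added after seeing the data, gave 6243 and 6722. Among the named genes called with TMM scaling, none changed sign under the other settings run, and 7 did with library size alone, as did 7 that had not passed; for the former the log2 fold change was −0.20 for Fgf1, −0.145 for Chpt1, −0.031 for Gprc5a, −0.073 for H2-K1, −0.10 for Hsp90b1, −0.033 for Nrp1 and −0.059 for Sdha; the median of all genes moved to −0.42 there. The cause of the scaling difference was not tested. No paired analysis was possible because the labels do not tie AT2 and lung libraries to mice and the library numbers follow accession order. Depth limits genes of a few counts, for which ratios carry wide counting intervals.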

Other observations

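AT2 library 4 and lung library 5 were each the highest of their group for several of the same genes, a set put together after the values were seen. The transcription factor gene Zbtb16 stood at 12.3, 32.6, 19.1 and 148 CPM in AT2 libraries 1 to 4 and 39.3, 19.6, 21.3, 14.6 and 252 CPM in lung libraries 1 to 5. Npr3, the clearance receptor of natriuretic peptides, stood at 2.53, 1.65, 2.06 and 7.95 CPM and 61.1, 107, 116, 184 and 528 CPM. The heat shock gene Hspa1a stood at 11.2, 23.7, 12.4 and 33.3 CPM and 3.25, 2.34, 3.73, 2.07 and 8.66 CPM, and Hspa1b at 6.74, 14.7, 7.83 and 24.1 CPM and 2.78, 1.34, 3.07, 2.18 and 12.97 CPM. Hsph1, given in the report, had the same order at its top. The labels do not say whether these 2 libraries came from 1 mouse, and a link between them was not tested.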
